A study of Mus musculus with 20 samples.

Results

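Liver was compared with epididymal white adipose tissue (eWAT, the fat pad attached to the epididymis) in wild-type (WT) mice, to describe which genes of metabolism, hormones and receptors separate the 2 tissues before any change to the insulin receptor. The members were the 5 WT liver libraries and the 5 WT eWAT libraries, 10 of the 20 libraries of a study of insulin receptor endocytosis. Every mouse was male and aged 2 months, and RNA was taken from whole tissue and selected by its poly-A tail. The other 10 libraries, liver and eWAT of the IR 4A genotype, were used only to see whether the tissue contrast recurred. The labels name no animal, so whether a liver and a fat library came from 1 mouse is not known, and p-values measure only the spread between these libraries. In whole tissue, fewer cells of a type and less RNA per cell cannot be told apart.

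Hepatocytes, the main cells of liver, make most plasma proteins, clear nutrients from portal blood, build glucose in fasting, make bile acids and release lipoproteins. White adipocytes store triglyceride in a large droplet, release fatty acids when hormones call for them, take up glucose through an insulin-driven transporter and secrete leptin and adiponectin. The epididymal pad lies against the epididymis, the coiled duct in which sperm mature, so a dissected pad can carry RNA of that duct and of sperm.

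The liver libraries held 17989420 to 21067651 counts and the eWAT libraries 15702786 to 21615358. The deposited liver table lists 15608 genes and that of eWAT holds 20738 genes. They share 15350, with 258 in the liver table only and 5388 in the eWAT table only. Of the shared genes, 14201 had enough counts to be tested with edgeR's quasi-likelihood F test, with Benjamini-Hochberg adjustment over all 14201. A difference is given below as log2 of liver over eWAT, so that a positive value means higher in liver, and a level as CPM, the counts of a gene scaled to a common library size, after TMM scaling (edgeR's trimmed mean of M values). Scaling matters here because the 20 most abundant genes took 30.5% to 38.4% of liver counts and 13% to 19.3% of eWAT counts. TMM moved the median difference of all tested genes by 1.38, from -1.55 with library totals to -0.17, and every direction below is relative to that scaling.

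The labelled tissues carried the markers of their main cells. The 12 listed hepatocyte markers summed to between 126550 and 143380 CPM in liver and to between 867 and 2390 in eWAT. In eWAT library 5 the sum was 1387.5 CPM, although the listed Fgb, Apob, Cyp3a11 and Cps1 had no count there. Other members of the list made up that sum, so the eWAT sums are not a measure of hepatocyte RNA. The 15 adipocyte markers summed to 196 to 315 CPM in liver and to 8311, 6242, 9279, 20015 and 9834 CPM in eWAT libraries 1 to 5. Clec4f, a lectin of Kupffer cells (the macrophages of the liver), had 38.5 to 71.1 CPM in liver and at most 0.268 in eWAT.

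The eWAT libraries also held much RNA of the epididymis and some of the testis. Of the 74 listed epididymis markers 72 were found, 68 of them in the eWAT table only, and they summed to 25084, 22631, 28986, 7014 and 34664 CPM in eWAT libraries 1 to 5 against 2.84 to 4.71 in liver. In 4 of the 5 fat libraries this was more than the sum of the adipocyte markers, and library 4 was the exception. The lists differ in size, with 72 genes against 15, so these sums do not show which tissue gave more RNA. Gpx5, the epididymal glutathione peroxidase, had 7384, 5786, 8071, 6.01 and 10603 CPM. Spag11b, an epididymal defensin-like peptide, had 1587 CPM in library 1 and 0.0298 in library 4. Crisp1, a sperm-coating protein of the duct, was highest in library 4, with 903, 1497, 1310.5, 1733 and 1086 CPM.

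Sperm and spermatid genes followed another order. The 44 listed genes summed to 2231, 6963, 745, 146 and 321 CPM in eWAT libraries 1 to 5 and to 1.94 to 3.64 in liver. Prm2, a protamine that packs sperm DNA, had 297, 940.4, 97.3, 17.7 and 54.7 CPM. Ldhc, the lactate dehydrogenase of germ cells, had 405 CPM in library 2 and 2.86 in library 4. Sperm genes were thus highest in library 2 and epididymis genes in library 5, and both lists were lowest in library 4.

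**Figure D1:**
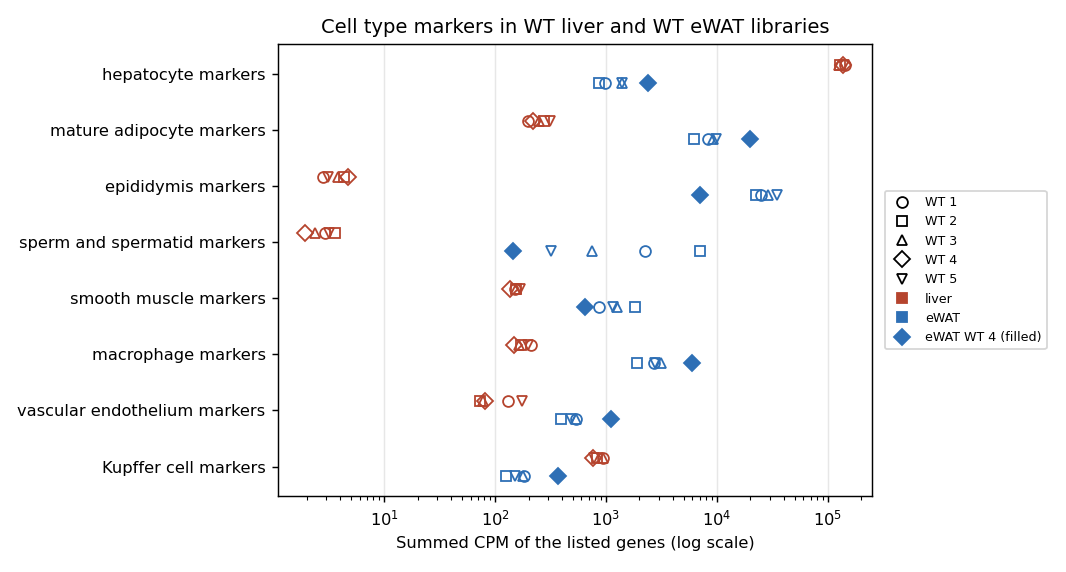
Summed CPM (log scale) of 8 marker lists in each of the 10 WT libraries. Each point is 1 library, red for liver and blue for eWAT, and the filled diamond is eWAT library 4. That library is lowest of the fat libraries for epididymis (7014 CPM), sperm and smooth muscle markers. It is highest for adipocyte (20015 CPM), macrophage, vascular, Kupffer cell and hepatocyte markers. The macrophage list includes Lpl, lipoprotein lipase, which made up most of each eWAT sum. The Kupffer cell list includes Cdh5 (281 CPM in library 4), which is also on the vascular list.

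Genes on these lists were kept out of the largest differences named below, but they remain in the counts of genes higher in eWAT. Of 147 listed epididymis, duct and testis genes found, 120 were in the eWAT table only and 24 were tested, of which 18 were strongly higher in eWAT by the rule below. Among all tested genes higher in eWAT, 204 spanned more than 16-fold among the 5 fat libraries, and 182 of them were highest in library 2 and 190 lowest in library 4. The same span was seen for 760 genes of the eWAT table only, with 703 highest in library 2. Genes with such a span were not named among the largest differences. Acta2 and Actg2, actins of smooth muscle, which surrounds the duct, were tested and are not on the epididymis list. Actg2 had 220.2, 266, 278, 7.23 and 327 CPM in eWAT and at most 0.918 in liver. Of 9 smooth muscle markers 5 were lowest in library 4, and their sum was highest in library 2 (1811 CPM). The part of the duct in these genes was not tested.

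Library 4 of the fat pad stood apart in adipose genes as well. It was highest for 15 of 15 adipocyte markers, 37 of 40 matrix genes and 11 of the 12 hepatocyte markers. It was lowest for 50 of 72 epididymis and 42 of 44 sperm markers. Another 17 of the 72 epididymis markers were highest in it, so the low sum does not hold for each marker of library 4. Of all tested genes 33.1% were highest in it and 32.1% lowest. In liver, libraries 1 and 3 stood apart in acute phase genes. Saa1, a serum amyloid, had 12752, 317, 7089, 451 and 622 CPM, and Apcs, serum amyloid P, listed in the liver table only, had 1475, 66.4, 695, 73.7 and 45.6. Results were therefore also computed without eWAT libraries 2 and 4, and without liver libraries 1 and 3, which were chosen after seeing these values.

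Most genes differed between the tissues. The libraries of the tissues did not overlap for 8790 of the tested genes (61.9%). At an adjusted p under 0.05, 4652 genes were higher in liver (32.8% of those tested) and 5842 higher in eWAT (41.1%), 73.9% in all. With upper-quartile scaling the counts were 3568 and 7097, and with library totals 1413 and 11344, so that the share of calls on the liver side was 44.3%, 33.5% and 11.1% in turn. Since a call alone says little here, genes were called strong where the adjusted p passed, the difference was at least 4 times (2 on the log2 scale) and no library of 1 tissue reached a library of the other. By that rule 1283 genes were strongly higher in liver (9.03%) and 2770 strongly higher in eWAT (19.5%). With the epididymis and testis lists removed they were 1281 and 2754. In eWAT library 4, 573 of the 2770 were at least 2 times below the median of the other fat libraries and 340 at least 2 times above it. Of all 14201 tested genes 1103 and 908 were. The part of epididymis and testis RNA in the 2770 was not tested. With upper-quartile scaling they were 1112 and 3063, and with library totals 694 and 5357. Without eWAT libraries 2 and 4 they were 1402 and 2773, and without liver libraries 1 and 3 they were 1310 and 2952.

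The contrast recurred in the IR 4A libraries. Of 1274 strongly liver-high genes that could be tested there, all had the same direction and 1202 passed the strong rule again (94.3%), against a background of 10.5% of IR 4A genes strong on that side. Of 2678 strongly eWAT-high genes, 2675 had the same direction and 2137 passed again (79.8%), against 16.9%. In the other direction, 82.5% of the genes strong in IR 4A liver and 91.7% of those strong in IR 4A eWAT were strong in WT. There were 48 genes called in opposite directions in the 2 genotypes, and that difference was not tested.

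**Figure D2:**
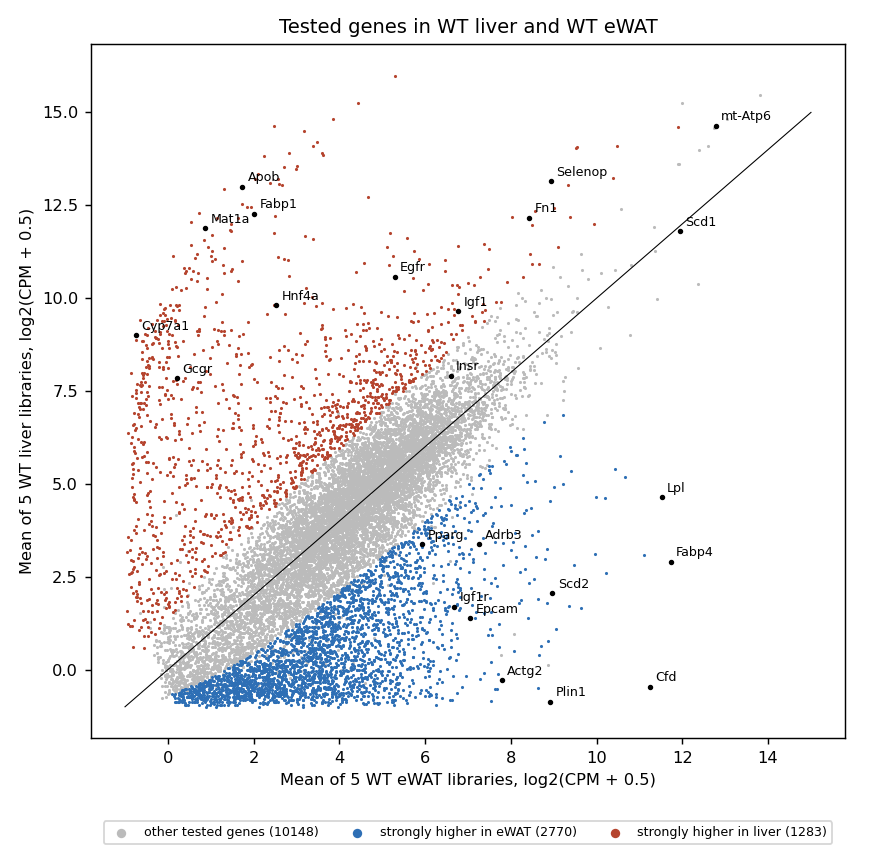
Mean level of each of the 14201 tested genes in 5 WT eWAT libraries (x axis) and 5 WT liver libraries (y axis), both as log2(CPM + 0.5). Red points are the 1283 genes strongly higher in liver and blue points the 2770 strongly higher in eWAT, grey points are the other tested genes, black points are labelled genes, and the line marks equal levels. Insr and Scd1 lie near the line, while Plin1 and Cfd are near the floor of liver and Cyp7a1 near the floor of eWAT.

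The 10 largest differences toward liver, among strong genes with a mean of at least 10 CPM and a span under 16-fold in the higher tissue, were those of 9 secreted proteins and an enzyme of bile acid synthesis. Cyp7a1, the rate-limiting enzyme of the classical bile acid pathway, had 696, 775, 845, 167 and 85.8 CPM in liver libraries 1 to 5 and 0, 0.202, 0.0650, 0.208 and 0 in eWAT. Its difference was 12.33 (SE 1.03, adjusted p = 1.19e-06). The tissues did not overlap, although the liver libraries themselves differed widely, with libraries 4 and 5 lowest. Fgb, the beta chain of fibrinogen, had 31164, 6852, 16890.0, 10268 and 7533 CPM in liver and 0.0599, 2.30, 1.88, 16.7 and 0 in eWAT, a difference of 11.75 (SE 1.87, adjusted p = 0.00017). Apob, the protein of very-low-density lipoprotein, had 6787 to 10601 CPM in liver and 0.240, 1.42, 0.942, 11.5 and 0 in eWAT (difference 11.49, adjusted p = 5.88e-05). In both genes most of the fat signal came from eWAT library 4. Without that library the differences were 12.99 for Cyp7a1, 13.86 for Fgb and 13.73 for Apob.

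Serpina10, an inhibitor of coagulation factor X, and Mbl1, a mannose-binding lectin of plasma, had differences of 12.02 and 11.92 (13.55 and 13.48 without eWAT library 4). Without liver libraries 1 and 3, Serpina10 was at 11.24 and Fgb at 10.93. The other 5 of the 10 largest were Mup12, Mup15, Mup16, Mup17 and Mup19, major urinary proteins that carry pheromones. They are nearly identical copies among which estimated counts can be split, so their single values are uncertain. Mup19, for instance, had 20114 to 35795 CPM in liver and between 0 and 20.7 in eWAT.

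The 10 largest differences toward eWAT by the same rule, outside the genes set apart, were led by adipocyte genes. Cfd, adipsin, a complement protease that adipocytes secrete, had 0.344, 0.169, 0.384, 0 and 0.230 CPM in liver and 1678, 1437, 1838, 4465 and 2659.7 in eWAT, a difference of -13.32 (SE 0.68, adjusted p = 3.55e-08). Plin1, the coat protein of the adipocyte lipid droplet, had 0.172, 0.0846, 0, 0 and 0 CPM in liver and 351, 224, 414, 993 and 437 in eWAT. In counts this was 3 in all liver libraries against 75153 in eWAT, a scaled ratio of 10117 with an exact 95% interval of 3462 to 49059 that covers counting error only. Aoc3, an amine oxidase of the adipocyte surface, had at most 0.459 CPM in liver and 184 to 787 in eWAT (difference -10.81, adjusted p = 1.45e-07). Phgdh, the entry enzyme of serine synthesis, differed by -10.41, with 55.9 to 164 CPM in eWAT and at most 0.172 in liver, and by -11.04 without liver library 1. All 4 genes were highest in eWAT library 4 and none overlapped between tissues.

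Sncg, gamma-synuclein, had 3 counts in liver and 28433 in eWAT, a ratio of 3828 (1309.6 to 18561). Chst1, a sulfotransferase, had 1 count in liver against 11759, a ratio of 4749 (852 to 187590). Both were highest in eWAT library 4. Egr2, a zinc finger transcription factor, and Zfp185, an actin-binding protein, went the other way among fat libraries. Egr2 had 110.0, 75.3, 121, 11.5 and 159 CPM in eWAT, and Zfp185 had 221, 186, 224, 106 and 277, both lowest in library 4 as the epididymis markers were. The part of epididymis RNA in these values was not tested. Their differences were -10.36 and -9.96, and -10.56 and -10.03 without eWAT library 4. Without liver library 4 Egr2 was at -11.85, and without liver library 3 Zfp185 was at -10.82.

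The last of these 10 were Cfap44, a protein of the sperm tail and of cilia, and Wbscr25. Cfap44 had no count in any liver library and 14.2, 38.5, 8.61, 3.07 and 11 CPM in eWAT, so it was at least 304-fold higher in eWAT when 3 counts over the liver group are taken as the floor. Wbscr25 had 36.5, 125, 30.4, 20.1 and 24.8 CPM in eWAT and 2 counts in liver, a ratio of 1333 (369 to 11007). Both were highest in eWAT library 2 and lowest in library 4, as the sperm genes were, although neither reached the 16-fold span that set genes apart. Leaving out 1 liver library moved the fitted differences of several genes near the liver floor, for example to -14.17 for Plin1 and -13.71 for Chst1 without liver library 1, and to -12.81 for Sncg without liver library 4. Without liver libraries 1 and 3 together, Cfd was at -14.04 and Wbscr25 at -13.10. Without eWAT library 2, Cfap44 was at -10.54 and Wbscr25 at -9.43.

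The start sites of several liver genes are shown because HNF1 is a hepatocyte transcription factor with a known short motif, and these named liver genes hold it near their start. The window runs from 250 bases before to 50 bases after the start in RefSeq on GRCm38.p6, an older build than the GRCm39 that the submitters name, so the coordinates are those of RefSeq. The 6 bases GTTAAT, the core of the HNF1 motif, or their reverse complement ATTAAC are in capitals, and all else is in lower case, 5′ to 3′ in the direction of the gene. Fgb lies at chr3:83049814-83050113 (minus strand), Fabp1, the liver fatty acid binding protein, at chr6:71199629-71199928 (plus), Igfbp1 at chr11:7197537-7197836 (plus), G6pc at chr11:101367466-101367765 (plus) and Plin1, shown as a fat gene without the motif, at chr7:79732727-79733026 (minus).
Fgb: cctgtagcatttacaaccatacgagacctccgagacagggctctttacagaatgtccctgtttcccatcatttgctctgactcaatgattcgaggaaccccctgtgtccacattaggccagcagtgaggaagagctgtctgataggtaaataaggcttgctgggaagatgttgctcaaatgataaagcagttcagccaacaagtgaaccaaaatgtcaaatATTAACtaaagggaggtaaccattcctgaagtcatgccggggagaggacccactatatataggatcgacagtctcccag
Fabp1: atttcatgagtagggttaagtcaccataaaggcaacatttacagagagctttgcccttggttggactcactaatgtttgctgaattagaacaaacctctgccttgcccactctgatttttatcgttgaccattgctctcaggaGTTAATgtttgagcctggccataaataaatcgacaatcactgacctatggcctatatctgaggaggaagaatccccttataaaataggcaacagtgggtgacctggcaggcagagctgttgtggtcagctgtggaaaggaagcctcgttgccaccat
Igfbp1: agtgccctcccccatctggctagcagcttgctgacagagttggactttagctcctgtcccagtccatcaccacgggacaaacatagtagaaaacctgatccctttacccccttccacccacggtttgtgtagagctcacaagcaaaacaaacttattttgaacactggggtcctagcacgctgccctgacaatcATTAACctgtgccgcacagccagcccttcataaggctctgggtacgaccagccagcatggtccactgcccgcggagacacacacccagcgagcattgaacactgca
G6pc: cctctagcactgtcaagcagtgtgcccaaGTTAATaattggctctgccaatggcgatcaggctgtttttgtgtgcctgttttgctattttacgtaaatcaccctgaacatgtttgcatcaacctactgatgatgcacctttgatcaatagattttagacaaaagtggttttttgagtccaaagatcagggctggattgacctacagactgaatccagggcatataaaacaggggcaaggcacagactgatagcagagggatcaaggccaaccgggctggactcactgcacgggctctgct
Plin1: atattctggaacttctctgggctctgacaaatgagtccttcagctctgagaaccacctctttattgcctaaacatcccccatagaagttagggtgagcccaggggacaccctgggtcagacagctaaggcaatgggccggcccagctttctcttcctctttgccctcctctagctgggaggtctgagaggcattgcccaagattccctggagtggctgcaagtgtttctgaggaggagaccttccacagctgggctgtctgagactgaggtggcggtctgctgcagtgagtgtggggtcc

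The match begins 29 bases before the start in Fgb, 107 in Fabp1, 56 in Igfbp1 and 221 in G6pc. All 4 genes were near absent from fat. Absence from fat did not go with every match. Pck1, a liver-high gene whose sequence is not shown, holds the match 192 bases before its start. It was abundant in fat as well, as given below. Fabp1 had 2870.2, 4801, 4831, 6216 and 6009 CPM in liver and 0.240, 1.78, 1.95, 13.7 and 0 in eWAT (difference 10.44, and 12.39 without eWAT library 4). Igfbp1, an IGF-binding protein that insulin represses, had 107 to 159 CPM in liver and at most 0.268 in eWAT (9.93). G6pc, glucose-6-phosphatase, which frees glucose into blood, had 141, 294, 238, 302 and 565 CPM in liver and at most 1.40 in eWAT (9.29, and 10.37 without eWAT library 4).

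Over the genes matched by symbol to RefSeq promoters, GTTAAT on either strand was in 9.71% of 1246 promoters of 996 strongly liver-high genes, in 4.18% of 2775 promoters of 2092 strongly eWAT-high genes, in 4.89% of 14322 promoters of all 11261 tested genes with a match and in 7.10% of all 32851 promoters of the table. The HNF4 core AAAGTCC was in 7.95%, 4.11%, 4.14% and 4.21% of the same sets. The FOXA core TGTTTAC was in 4.98%, 2.52%, 2.73% and 3.65%. The TATA box TATAAA was in 12.5%, 8.90%, 7.82% and 13.6%, and the E-box CACGTG, read by many basic helix-loop-helix factors, in 8.03%, 6.81%, 9.50% and 7.15%. Both strands were searched, each string was counted on its own even where matches overlapped, and a match is a description of letters, not of a bound site. Of the named strongly liver-high genes 77 had a promoter in the table and 14 of these held GTTAAT or its complement. Of the named strongly eWAT-high genes 56 had a promoter and 3 held it (Bub1b, C1qtnf9 and Npr3).

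Genes for plasma proteins, bile acids, coagulation, lipoproteins and drug metabolism had the highest list medians on the liver side. The lists were compared by counts and by the median difference, beside -0.17 for all tested genes. In bile acid synthesis and transport 19 of 19 tested genes were strongly higher in liver (median 10.15), against 9.03% of all genes. In plasma and acute phase proteins it was 34 of 35 (median 10.60), in apolipoproteins and lipoprotein assembly 18 of 22 (7.69) and in drug metabolism 37 of 44 (7.65). Without eWAT library 4 the medians of the bile acid and plasma protein lists were 11.32 and 12.03. Cyp8b1, which directs synthesis toward cholic acid, had 244 to 662 CPM in liver and at most 0.655 in eWAT (11.29, and 13.26 without eWAT library 4). Slco1a1, an organic anion carrier of the hepatocyte membrane, differed by 11.12 (12.66 without that library). Apoa5, which promotes the clearance of triglyceride-rich lipoproteins, had 882 to 1511 CPM in liver and at most 2.17 in eWAT (11, and 12.88). Cyp3a11, the main drug-oxidizing P450 of its family in mouse liver, had 2580.0, 5139, 3759, 6365 and 5111 CPM in liver and 0, 2.30, 0.325, 5.90 and 0 in eWAT (11.38, and 12.95).

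Coagulation genes lay on both sides. Of 28 tested genes 21 were higher in liver and 7 higher in eWAT (median 8.46). Fgg, the gamma chain of fibrinogen, had 4955 to 21518 CPM in liver and 0.390 to 11.7 in eWAT (11.41, 12.60 without eWAT library 4, 10.64 without liver libraries 1 and 3). Among the 5 genes strongly higher in eWAT were F13a1, which cross-links fibrin and is made in macrophages (-6.59), Plat, the tissue plasminogen activator (-6.27), Thbd, thrombomodulin of vessel lining (-4.57), and Vwf, von Willebrand factor of endothelium (-2.77). F13a1 had 23.3, 33.6, 44.0, 87.9 and 21.6 CPM in eWAT and at most 0.918 in liver. Plat was at -7.16 without liver library 1.
The 11 vascular endothelial markers summed to 395 to 1096 CPM in eWAT and 73.6 to 176 in liver. The 15 macrophage markers summed to 1888 to 6001 in eWAT and 149 to 209 in liver. That list includes Lpl, lipoprotein lipase, whose values (given below) made up most of each eWAT sum. The macrophage sums therefore do not measure macrophages alone. The part of endothelial cells and macrophages in the coagulation gene values was not tested. Of 28 complement genes 19 were higher in liver, 5 higher in eWAT and 4 passed in neither direction (median 3.14), and Cfd above was 1 of the 5.

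Amino acid and nitrogen metabolism leaned to liver with known exceptions. In the urea cycle and ammonia list 11 of 14 tested genes were higher in liver (median 5.08) and in amino acid breakdown 41 of 45 (3.47). Cps1, which commits ammonia to urea, had 3978, 4964, 3314, 5197 and 5426 CPM in liver and 0.270, 1.46, 1.33, 9.91 and 0 in eWAT (10.77, and 12.65 without eWAT library 4). Otc, the next enzyme, had 382 to 561 CPM in liver and at most 1.43 in eWAT (10.40, and 12.92). Tat, tyrosine aminotransferase, a glucocorticoid target, differed by 10.84 (12.41), and Dmgdh, of choline breakdown, by 11.33 (12.42). Arg2, the mitochondrial arginase of the urea cycle list, was strongly higher in eWAT (-6.85). Arg2 had 6.25 to 9.87 CPM in eWAT against 4 counts in all of liver.

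Carbohydrate and fat oxidation genes were higher in liver by smaller steps. Of 17 gluconeogenesis genes 15 were higher in liver and 2 higher in eWAT (median 2.80). In fatty acid oxidation it was 28 against 2 of 31 (2.35), in ketone body metabolism 7 against 1 of 8 (2.57), and in fructose and galactose use 7 against 1 of 8 (2.81). Oxct1, which uses ketone bodies and is known to be low in hepatocytes, was the 1 gene of its list higher in eWAT, with 79.7 to 127 CPM there and 2.22 to 4.48 in liver (-4.77). Slc27a2, a fatty acid carrier and activator of peroxisomes, had 1589 to 2566 CPM in liver and 4.97 to 7.17 in eWAT (8.47). Cpt1c, a carnitine palmitoyltransferase form best known from neurons, was strongly higher in eWAT (-4.05). Khk, ketohexokinase, the entry of fructose, differed by 4.60. Sord, sorbitol dehydrogenase, had 778 to 1877 CPM in liver and 136, 356, 58.5, 43.4 and 43.6 in eWAT, highest in library 2, and its difference of 3.41 was 4.33 without that library.

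Cholesterol and iron genes also lay on the liver side. Of 26 genes of cholesterol synthesis and uptake 24 were higher in liver (median 2.46). Of 20 iron and haem genes 15 were higher in liver, 1 higher in eWAT and 4 passed in neither direction (3.12). Hpx, hemopexin, the haem carrier of plasma, had 19791, 4646, 13485, 4989 and 4571 CPM in liver and 0.259 to 13.5 in eWAT. Its difference was 11.37, 13.17 without eWAT library 4 and 10.36 without liver libraries 1 and 3.

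On the fat side, matrix genes, Hox genes, adipokines, fat transcription factors and lipid droplet genes led. Of 40 extracellular matrix genes 36 were strongly higher in eWAT, against 19.5% of all genes (median -4.32). Lox, which cross-links collagen and elastin, had 22.7 to 54.2 CPM in eWAT and at most 0.602 in liver (-7.25, and -8.03 without liver library 1). Eln, elastin, had 89.1 to 265 CPM in eWAT and 1.10 to 3.01 in liver (-6.07), Fmod, fibromodulin, differed by -5.73 and Col6a2, a collagen VI chain abundant around adipocytes, by -5.69. The exception was Fn1, fibronectin, which hepatocytes release into plasma, with 7272, 3436, 5418, 3311 and 3573 CPM in liver and 208, 239, 332, 817 and 122 in eWAT (3.74, and 4.44 without eWAT library 4).

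Hox genes, which record position along the body, were nearly confined to the fat pad. Of the 35 found, 25 were in the eWAT table only, and 10 of 10 tested were strongly higher in eWAT (median -4.19). Hoxb3 had 32, 25.1, 36.1, 16.9 and 44.2 CPM in eWAT and 0.592 to 1.45 in liver (-5.19). The 35 genes summed to 499, 416, 557, 316 and 668 CPM in eWAT libraries 1 to 5, lowest in library 4, and to 3.99 to 6.81 in liver. Their order among the fat libraries was that of the epididymis markers (library 5 highest, then 3, 1, 2 and 4), and the part of that tissue in them was not tested. Among transcription factors named for adipose tissue, Ebf1 had 38.8 to 107 CPM in eWAT and at most 0.430 in liver (-8.29), and Zfp423, a preadipocyte factor, differed by -5.96. Of 21 tested, 14 were higher in eWAT and 5 in liver (median -1.74). The strong genes against the side of the list were Cebpb (2.77) and Klf15 (2.74), both also known from hepatocytes. Of 21 liver transcription factors 17 were higher in liver (6.18), among them Onecut2 (9.95), Creb3l3 (9.79) and Foxa3 (8.58). Without eWAT library 4, Onecut2 was at 10.83 and Creb3l3 at 10.59. Tox3 was the 1 strong exception, with 32.7, 21.4, 30.9, 15.4 and 35.4 CPM in eWAT and 4 counts in liver. Like the epididymis sum it was highest in library 5 and lowest in library 4, and the part of that tissue was not tested.

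Lipid droplet and lipolysis genes lay on both sides. Of 24 tested, 16 were higher in eWAT and 6 in liver (median -1.15). Fabp4, the fatty acid binding protein of adipocytes, had 2738, 2178, 3124, 6147 and 2804 CPM in eWAT and 4.90 to 8.72 in liver (-8.92, SE 0.46), and Pnpla3, a lipase-like protein, differed by -8.45 (-7.86 without eWAT library 4, -9.79 without liver library 3). Strongly higher in liver were Fitm1 (4.99), Plin5 (3.80), Plin2 (3.75) and Cideb (7.55). Plin2, the droplet coat of hepatocytes, had 701, 443, 658, 604 and 965 CPM in liver and 33.0 to 89.5 in eWAT. In triglyceride synthesis, where 10 of 17 genes were higher in liver and 5 in eWAT, the median of 0.75 became -0.62 with library totals. The shares of all tested genes were 32.8% and 41.1%. Lpin2, a phosphatidate phosphatase, was strongly higher in liver (4.93), and Dgat1, which makes triglyceride, strongly higher in eWAT (-2.11).

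De novo lipogenesis, which both tissues perform, showed no common side. Of 19 genes 7 were higher in liver, 6 higher in eWAT and 6 passed in neither direction (median -0.14). Among all tested genes 32.8% were higher in liver and 41.1% higher in eWAT, so a split list is not particular to lipogenesis. Scd1, the main stearoyl-CoA desaturase of both tissues, had 1518, 3045, 4674, 5862 and 2790.1 CPM in liver and 4151, 2407, 3578, 7134 and 2408 in eWAT, which overlap widely (-0.14, SE 0.44, adjusted p = 0.79, and 0.28 without eWAT library 4). Its paralog Scd2 had 2.88 to 4.53 CPM in liver and 531, 440.3, 576, 375 and 581 in eWAT (-7.09, SE 0.21). Scd2, unlike Fabp4 or Plin1, was lowest in eWAT library 4. Its order among the fat libraries was that of the summed epididymis markers, and the part of epididymis RNA in it was not tested. G6pdx, which supplies reducing power for fat synthesis, was strongly higher in eWAT (-4.81), and Mlxipl, the carbohydrate response factor ChREBP, strongly higher in liver (2.72).

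**Figure D3:**
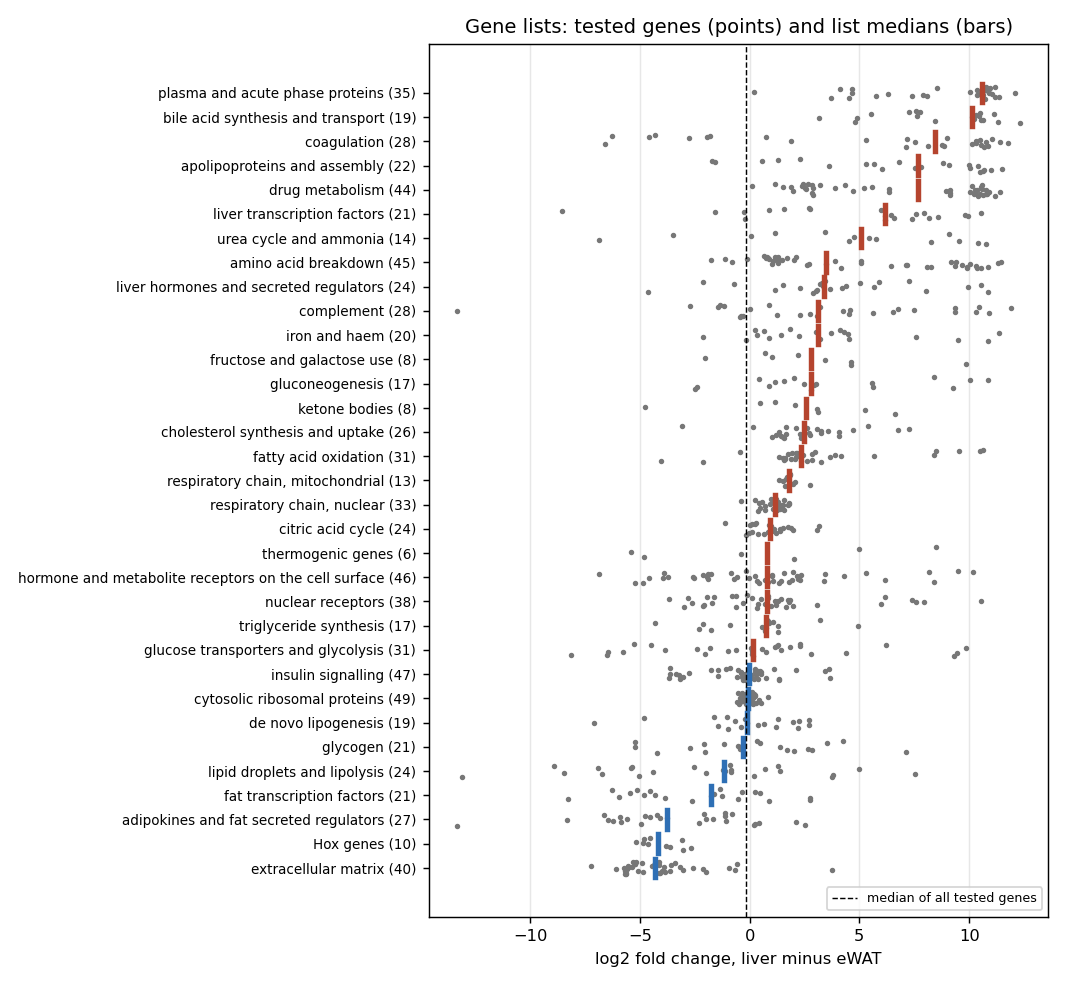
Log2 fold change, liver minus eWAT, of the tested genes of 33 lists (grey points, number tested in brackets), with each list's median as a bar and the median of all tested genes (-0.17) as a dashed line. Lists run from plasma proteins (median 10.60) to extracellular matrix (-4.32), and with library totals the medians of the citric acid cycle, nuclear respiratory chain, thermogenic, surface receptor, nuclear receptor, triglyceride and glycolysis lists turn negative.

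Most respiratory chain genes were higher in liver with TMM scaling, and most cytosolic ribosomal protein genes passed in neither direction. All 13 mitochondrially encoded genes were higher in liver (median 1.78, and 0.40 with library totals), and 31 of 33 nuclear respiratory chain genes were (1.14, and -0.23 with library totals), none of these 33 strongly. In the citric acid cycle 15 of 24 were higher in liver (0.92, and -0.46 with library totals). Fh1, fumarase, had 216 to 403 CPM in liver and 27.5 to 47.9 in eWAT (3.18). Of 49 cytosolic ribosomal protein genes 3 were higher in liver, 13 higher in eWAT and 33 passed in neither direction (median -0.09). Rps2 (0.86, but -0.53 with library totals) was 1 of the 3 and Rps23 (-0.51) was 1 of the 13. Beside the counts of these lists, 32.8% of all tested genes were higher in liver and 41.1% higher in eWAT. Thermogenic genes, named for brown fat, had 6 tested members. Prdm16, which directs the brown fat program, was 1 of 2 strongly higher in eWAT, at 10.2, 11.4, 12.1, 5.51 and 15.1 CPM against at most 0.739 in liver. Strongly higher in liver were Slc27a2 as above, Eva1a (4.97) and Ppargc1a (2.00), a coactivator of mitochondrial genes. Elovl3, a fatty acid elongase, had 63.9 to 109 CPM and was in the liver table only.

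Many enzymes and carriers exist in a liver form and a form of other tissues, and 26 such pairs were set side by side. The pairs were chosen for this and with earlier results of these data known. The number of pairs that pass below therefore partly reflects that choice. Levels of different genes are compared here per length, as CPM per kilobase of transcript, and the forms are set against each other within a library. Since 0.5 CPM per kilobase is added to each form, a ratio with a form near or under that level depends on it and on the scaling. A form had a mean under 0.5 in 7 of 25 pairs in liver and in 4 in eWAT, and with library totals mean log2 ratios moved by -0.67 to 0.003 in liver and by -0.55 to 0.14 in eWAT. Of 25 pairs that could be tested, the ratio differed between tissues in 24 (exact permutation test over the 10 libraries, two-sided, where 0.00794 is the smallest p that 5 against 5 can give, and adjusted p = 0.00863 for 23 pairs), and 24 did with library totals. Adipor2 over Adipor1 had p = 0.0159 by the same exact permutation test and adjusted p = 0.0165. In 15 of the 25 pairs the form named as the liver form was higher in 5 of 5 liver libraries and in 0 of 5 fat libraries.

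Glucose handling used different forms at several steps. Slc2a2, the high-capacity carrier GLUT2, was at 61.4 ± 21.7 CPM per kilobase in liver (SD, n = 5) against 0.0512 ± 0.0567 for Slc2a4, the insulin-driven carrier GLUT4, and in eWAT they were at 0.0945 ± 0.0613 and 15.4 ± 9.33. The mean log2 ratio was 6.73 in liver and -4.57 in eWAT. Slc2a4 itself had 24.7, 17.5, 38.3, 78.2 and 35.8 CPM in eWAT, highest in library 4. Pklr over Pkm, the pyruvate kinases, went from 3.93 to -6.02, with Pkm steady in fat at 221, 221, 224, 226 and 230.3 CPM. Gys2 over Gys1, the glycogen synthases, went from 6.56 to -3.57. Pygl, the liver glycogen phosphorylase, exceeded Pygm, the muscle form, in both tissues (7.66 and 3.61), while Pygb, the brain form outside the pairs, was strongly higher in eWAT (-5.21).

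For phosphofructokinase and fructose bisphosphatase the switch was partial. Pfkl exceeded Pfkp in 5 of 5 liver libraries and 4 of 5 fat libraries (log2 ratio 2.88 and 0.80). Fbp1 exceeded Fbp2 in 5 of 5 and 4 of 5 (9.55 and 1.78). Pck1, the cytosolic enzyme of gluconeogenesis and of glycerol synthesis in fat, exceeded Pck2 in all libraries of both tissues, by 10.48 in liver and 5.64 in eWAT. It had 4133, 4968, 4357, 4233 and 5381 CPM in liver and 629, 419, 438, 1369 and 464 in eWAT, so this gene of glucose production was abundant in fat as well (2.80, SE 0.39), unlike G6pc above. As lists, glycolysis and glucose transport (14 higher in liver, 11 in eWAT of 31) and glycogen (9 and 9 of 21) had medians of 0.17 and -0.29. The glycolysis median was -1.21 with library totals. Beside these counts, 32.8% of all tested genes were higher in liver and 41.1% higher in eWAT.

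Lipid carriers and droplet proteins gave the widest switches. Fabp1 over Fabp4 went from 10.05 ± 0.63 in liver to -10.30 ± 1.83 in eWAT (SD, n = 5). Cideb over Cidec, which fuse or load lipid droplets and lipoproteins, went from 5.55 to -8.09. Slc27a5 over Slc27a1, fatty acid transport proteins, went from 6.18 to -7.14. Lipc over Lpl, hepatic and lipoprotein lipase, went from 3.33 to -9.29, and Plin2 over Plin1 from 9.39 to -2.58. Lpl had 2475, 1586, 2742, 5387 and 2436 CPM in eWAT and 18.7 to 29.9 in liver, with no overlap. Cpt1a, the liver form of the gate to fatty acid oxidation, exceeded Cpt1b, the muscle form, in all libraries of both tissues (7.08 and 2.65). Cpt1b in eWAT reached 45.9 CPM at its highest, and its own difference of -2.12 (adjusted p = 0.033) was -1.05 without eWAT library 2 (adjusted p = 0.151). It also did not pass without eWAT library 1 or without any one of liver libraries 1 to 4 (adjusted p 0.0566 to 0.0692).

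Amino acid enzymes switched in the same way. Mat1a over Mat2a, which make S-adenosylmethionine, went from 4.78 to -6.47, and Arg1 over Arg2 from 11.02 to -1.78. Among regulators, Ppara over Pparg went from 3.23 to -4.43 and Fgfr4 over Fgfr1 from 1.16 to -4.09. The acetyl-CoA carboxylases Acacb and Acaca were near parity in liver (-0.08) and Acaca led in eWAT (-1.47). The pair that did not pass was Irs2 over Irs1, the adaptors of the insulin receptor, at 1.05 ± 0.52 in liver and 1.19 ± 0.21 in eWAT (SD, n = 5, exact permutation p = 0.659). Bcat1 was in the eWAT table only, so Bcat1 over Bcat2 was not tested.

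**Figure D4:**
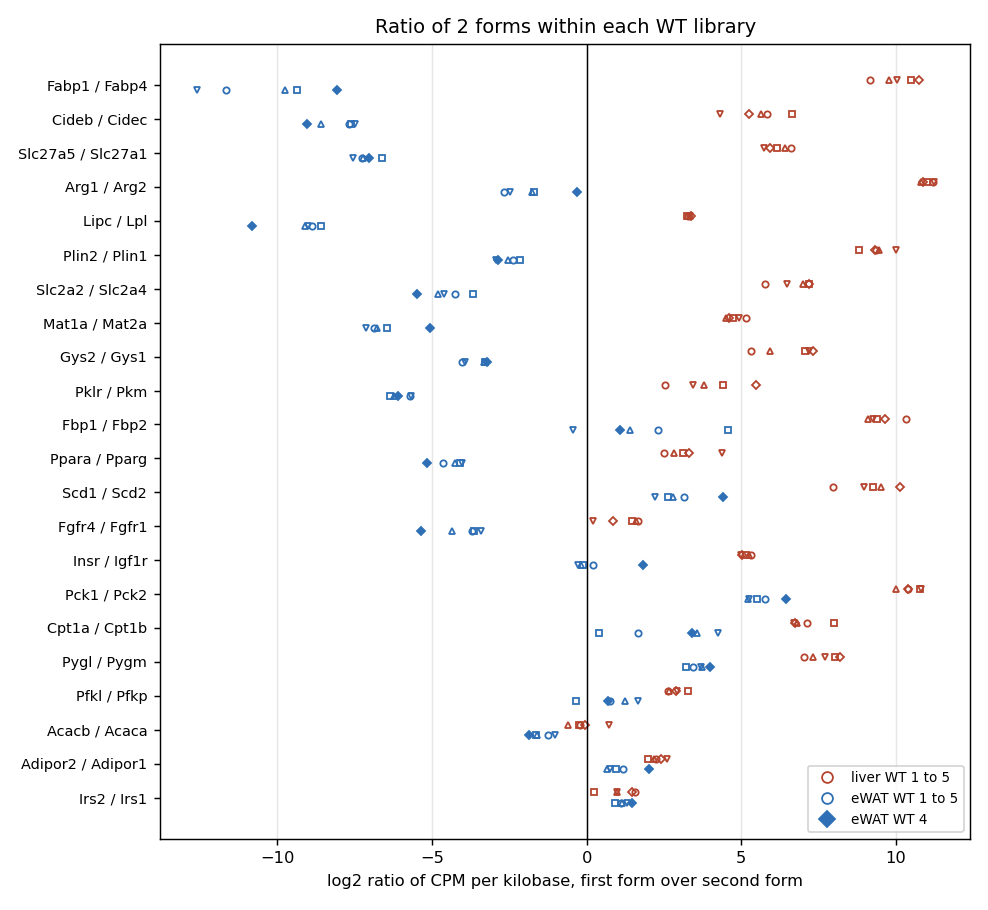
Log2 ratio of CPM per kilobase of the form named before the slash over the form after it, within each WT library, for 22 of the 25 tested pairs (0.5 added to each form). Red points are liver libraries and blue points eWAT libraries, with library 4 of eWAT filled. Fabp1 / Fabp4 differs most, and Irs2 / Irs1 overlaps between tissues.

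Hormones and secreted regulators of liver were mostly, though not only, liver genes. Of 24 tested 21 were higher in liver and 2 in eWAT (median 3.39), and Lect2 and Inhbc were in the liver table only. Igf1, the growth factor that growth hormone induces in liver, had 799, 747, 719.6, 832 and 914 CPM in liver and 109.8, 87.6, 90.5, 180.3 and 77.2 in eWAT (2.88, SE 0.24, adjusted p = 1.23e-06). Liver libraries did not overlap fat libraries, yet fat carried a clear level. Selenop, the selenium carrier of plasma, had 8119 to 10150.0 CPM in liver and 372 to 801 in eWAT (4.22). Hamp, hepcidin, which limits iron export, had 690.1, 302, 105, 384 and 555 CPM in liver and at most 0.485 in eWAT (10.85, and 11.53 without eWAT library 4). Inhbe, an activin subunit, had 95 to 213 CPM in liver and at most 0.298 in eWAT (10.55, and 11.72).

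Angiopoietin-like proteins, which inhibit lipoprotein lipase, differed in how far they were shared. Angptl8 differed by 3.65. Angptl4 had 271, 269, 259.9, 234 and 414 CPM in liver and 118, 74.4, 125, 228 and 106 in eWAT (1.15, adjusted p = 0.00309, but -0.22 with library totals). Agt, angiotensinogen, had 432 to 629 CPM in liver and 70.4 to 175 in eWAT (2.29). Fgf21, a fasting hormone, had 6.53, 1.52, 3.30, 1.20 and 5.28 CPM in liver and 0.357 to 0.566 in eWAT (3.02), a low level in both. The exceptions were Igf2 (-4.62) and Bmp6 (-2.13), the latter known from liver endothelium as the inducer of hepcidin. Igf2 had 9.06 to 15.5 CPM in eWAT and at most 0.842 in liver.

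Of the fat-secreted regulators, 9 were in the eWAT table only, and of 27 tested 21 were higher in eWAT and 3 in liver (median -3.75). Lep, leptin, had 83.8, 64.4, 156, 245 and 97.1 CPM in eWAT, Adipoq, adiponectin, 514, 367, 553, 1286 and 544, and Retn, resistin, 104, 68.1, 118, 268 and 112. All 3 were highest in library 4 and lowest in library 2. Npy and Fgf10 were also in the eWAT table only. Slit3 differed by -8.31 (-9.86 without liver library 3), Igfbp6 by -6.65 and C1qtnf9, an adiponectin relative, by -5.92. Gpnmb, a glycoprotein of lipid-laden macrophages and fat, had 30.8, 31.7, 48.5, 16.3 and 48.4 CPM in eWAT, lowest in library 4, and at most 0.688 in liver (-6.22). The part of epididymis RNA in Gpnmb was not tested.
Some regulators named for fat were higher in liver. Rarres2, chemerin, had 213 to 344 CPM in liver and 35.9 to 83.1 in eWAT (2.50), Fgf1 differed by 2.11, and Serpina12, vaspin, had 19.9 to 52.2 CPM and was in the liver table only. Nampt, which makes NAD and is also known as visfatin, had 57.9 to 130.3 CPM in liver and 64.0 to 137 in eWAT (0.18, adjusted p = 0.506, but -1.18 with library totals). Nrg4 did not pass either (0.26, adjusted p = 0.417, but -1.12 with library totals), but passed on the liver side without eWAT library 4 (0.71, adjusted p = 0.00312).

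Surface receptors for hormones and metabolites were split, with 25 of 46 tested higher in liver, 15 higher in eWAT and 6 passing in neither direction (median 0.77, and -0.60 with library totals). Over all tested genes the shares were 32.8% in liver and 41.1% in eWAT. Gcgr, the glucagon receptor, had 223, 248, 233, 218 and 223 CPM in liver and 0.360, 0.162, 0.390, 1.79 and 0.591 in eWAT (8.39, SE 0.52, and 9.30 without eWAT library 4). The liver libraries were close to each other and the highest fat library was library 4. Asgr1, the receptor that clears desialylated proteins, differed by 10.18 (11.65 without library 4). Egfr had 1028 to 2148 CPM in liver and 28.7 to 63.2 in eWAT (5.30), and Adra1b, the alpha-1B adrenergic receptor, differed by 6.15. Adrb3, the beta-3 adrenergic receptor that starts lipolysis, had 132, 73.4, 111, 285 and 165 CPM in eWAT and 9.89, 13.5, 11, 8.13 and 6.66 in liver (-3.96, SE 0.37). Npr3, the clearance receptor of natriuretic peptides, had 133 to 315 CPM in eWAT and 1.07 to 2.49 in liver (-6.84). Acvr1c, the activin receptor ALK7 of adipocytes, differed by -9.02, and Ffar4, a receptor of long-chain fatty acids, by -4.56.

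Several receptors were in the eWAT table only. Tshr, for thyrotropin, had 29.6 to 80.9 CPM, Hcar1, for lactate, 16.1 to 62.8, and Ptger3, for prostaglandin E2, 3.44 to 27.2, all highest in library 4. Oxtr, for oxytocin, had 30.9, 20.5, 35.0, 16.9 and 42.1, lowest in library 4. Its order among the fat libraries was that of the summed epididymis markers, and the part of epididymis RNA in it was not tested. Gipr, for the incretin GIP, had 2.55 to 5.84. Glp1r had too few counts in both tissues to be tested, with at most 0.333 CPM in any library.
Within families the members parted. Tfr2, the iron sensor of hepatocytes, had 399 to 480.4 CPM in liver and 0.222 to 1.16 in eWAT (9.47), whereas Tfrc, the transferrin receptor of most cells, had 13.8 to 26.1 and 19.3 to 26.0 (-0.17, adjusted p = 0.391). Fgfr4 with its co-receptor Klb was on the liver side (4.29 and 2.16), Fgfr1 on the fat side (-1.94), and Fgfr2 had 30.8 to 46.4 and 27.7 to 35.4 CPM (0.25, adjusted p = 0.106, and 0.32, adjusted p = 0.0367, without liver library 1, but -1.13 with library totals). Ghr, the growth hormone receptor, had 348, 677, 476, 500.1 and 658 CPM in liver and 231, 197, 239, 543 and 282 in eWAT. Its difference of 0.83 (adjusted p = 0.0245) was -0.53 with library totals, and it did not pass without eWAT library 1 or 3 or liver library 2 or 5 (adjusted p 0.0561 to 0.0595). Lepr, the leptin receptor, varied among liver libraries, with 5.76, 3.21, 2.53, 18.9 and 14.5 CPM against 3.63 to 4.81 in eWAT (1.05, adjusted p = 0.0775, but -0.34 with library totals), and passed without liver library 2 or 3 (adjusted p = 0.0347 and 0.0231).

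Nuclear receptors showed a liver set, a fat set and a shared set. Of 38 tested 21 were higher in liver, 10 higher in eWAT and 7 passed in neither direction (median 0.77, and -0.60 with library totals). For all tested genes it was 32.8% and 41.1%. Hnf4a, the master regulator of hepatocyte genes, had 969.7, 775, 866, 801 and 1069 CPM in liver and 9.77, 3.40, 2.53, 3.36 and 7.28 in eWAT (7.41, SE 0.45, adjusted p = 1.16e-07). Its fat values were highest in libraries 1 and 5, not in library 4. Nr1i3, the drug sensor CAR, differed by 10.53 (12.77 without eWAT library 4), Nr1i2, the drug sensor PXR, by 7.96, Nr1h4, the bile acid receptor FXR, by 7.56 and Nr5a2 by 6.16. Ppara, which drives fatty acid oxidation, had 124 to 234 CPM in liver and 1.56 to 3.51 in eWAT (5.97), and Rxra, the shared partner, 475 to 718 and 44.1 to 117 (3.07). Nr0b2, the target of FXR known as SHP, was in the liver table only, at 6.98 to 16.1 CPM.

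On the fat side Pparg, the master regulator of adipocytes, had 49.7, 34.8, 50.7, 116 and 50.4 CPM in eWAT and 12.7, 11.2, 12.6, 6.84 and 5.97 in liver (-2.61, SE 0.35). The tissues did not overlap. Nr4a1 had 19.5, 19.7, 18.9, 6.49 and 20.7 CPM in eWAT and 1.89 to 3.64 in liver (-2.82). It was lowest in eWAT library 4, with the epididymis markers, whose part was not tested, and stood at -2.93 without that library. Vdr, the vitamin D receptor, was in the eWAT table only, at 2.17 to 6.71 CPM. The thyroid hormone receptors parted, with Thra on the fat side (-2.14) and Thrb on the liver side (1.98). Nr3c1, the glucocorticoid receptor, did not pass (0.32, adjusted p = 0.0706, but -1.05 with library totals). It passed without eWAT library 4 (0.57, adjusted p = 0.000593) and with DESeq2 (0.36, adjusted p = 0.0426). Esr1 (-0.62, adjusted p = 0.0732) passed without liver library 1 or 5 (adjusted p = 0.0355 and 0.0475).

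**Figure D5:**
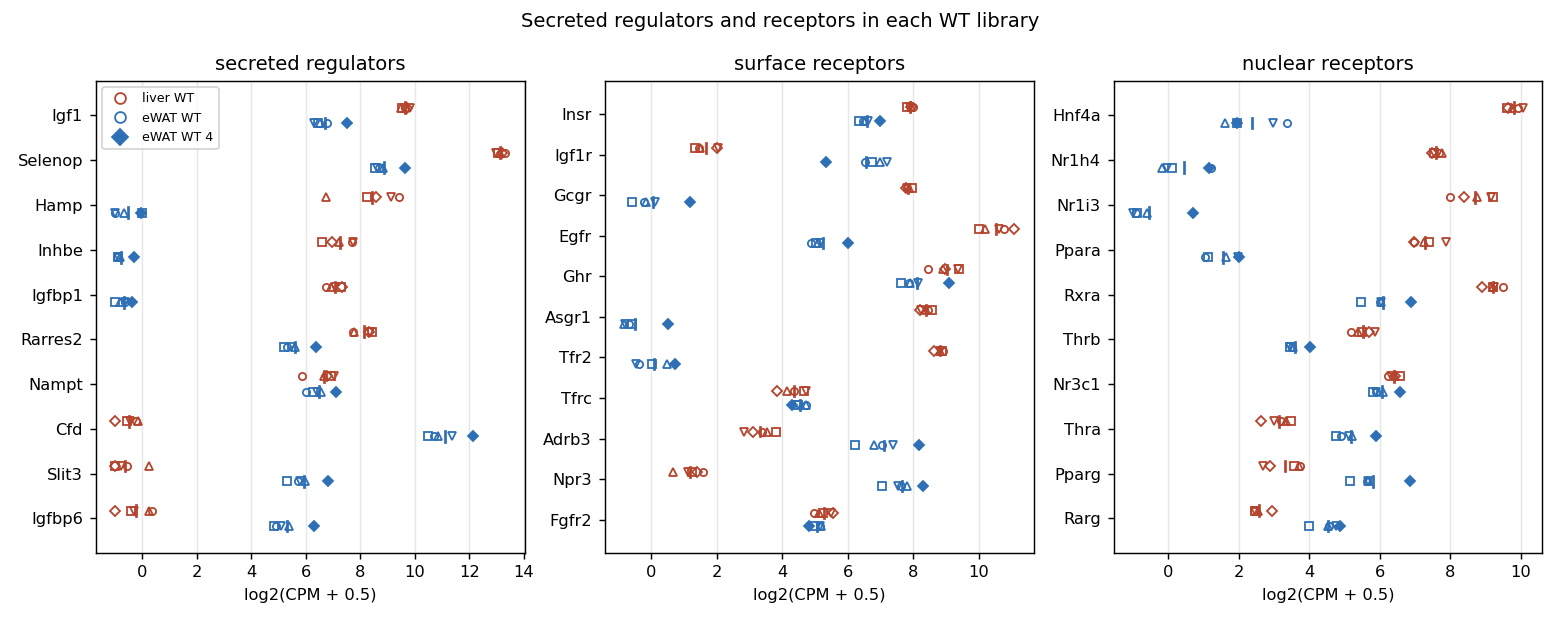
Levels, as log2(CPM + 0.5), of secreted regulators, surface receptors and nuclear receptors in each WT library. Each point is 1 library (red liver, blue eWAT, library 4 of eWAT filled) and each bar the group mean. The tissues are far apart for Hamp, Gcgr, Asgr1, Hnf4a and Cfd and overlap for Nampt, Tfrc, Ghr, Nr3c1 and Fgfr2, and with library totals the differences of Insr, Ghr, Nampt, Nr3c1 and Fgfr2 turn to the fat side.

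The insulin receptor itself differed modestly. Insr had 253, 222, 245, 242 and 237 CPM in liver and 87.9, 80.2, 88.8, 127 and 97.6 in eWAT, a difference of 1.32 (SE 0.13, adjusted p = 4.38e-06) with no overlap, but of -0.06 with library totals. Igf1r, the related IGF1 receptor, was nearly absent from liver, with 2.24, 2.03, 2.30, 3.51 and 3.60 CPM against 91.4, 107, 125, 40.0 and 145 in eWAT (-5.21, SE 0.36, adjusted p = 3.15e-07). Per kilobase Insr exceeded Igf1r in 5 of 5 liver libraries (log2 ratio 5.15 ± 0.14, SD) and in 2 of 5 fat libraries (0.29 ± 0.87). Igf1r was lowest in eWAT library 4, where epididymis markers were lowest, and its difference without that library was -5.32. The part of epididymis RNA in Igf1r was not tested.

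MAD2, BUBR1 and p31comet are the spindle checkpoint proteins that the study's subject ties to endocytosis of the insulin receptor. Mad2l1, which encodes MAD2, had 3.78, 3.04, 3.91, 5.27 and 2.52 CPM in liver and 8.21, 9.54, 8.90, 5.45 and 6.87 in eWAT (-1.07, SE 0.23, adjusted p = 0.00153). Bub1b, which encodes BUBR1, had 1.20, 0.592, 0.307, 0.0924 and 1.07 CPM in liver and 8.24, 17, 6.37, 5.72 and 3.88 in eWAT (-3.64, SE 0.58, adjusted p = 0.000184). Neither overlapped between tissues, and both were highest in eWAT library 2, which held the most sperm and germ cell RNA. The part of that RNA was not tested, and without libraries 2 and 4 the differences were -1.03 and -3.14. Mad2l1bp, which encodes p31comet, had 3.81 to 7.96 and 3.30 to 5.91 CPM (0.26, adjusted p = 0.336, but -1.12 with library totals).

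Of the whole insulin signalling list, 14 of 47 tested genes were higher in liver, 18 higher in eWAT and 15 passed in neither direction (median -0.05). This split was near that of all tested genes, where 32.8% were higher in liver and 41.1% higher in eWAT. The core kinases passed in neither direction. Pik3ca, Pdpk1, Akt1 and Akt2 differed by -0.05, 0.00, 0.07 and 0.31, with adjusted p from 0.237 to 0.984, and so did Irs1 (-0.15, adjusted p = 0.445), Irs2 (-0.31, adjusted p = 0.252) and the phosphatase Ptpn1 (0.04, adjusted p = 0.764). Akt2 passed without eWAT library 4 (0.71, adjusted p = 0.000125), where it was highest at 180.2 CPM, and Pdpk1 without eWAT library 2 (0.25, adjusted p = 0.0175), where it was highest at 77.4. With upper-quartile scaling Irs1 (-0.44, adjusted p = 0.0408), Irs2 (-0.60, adjusted p = 0.045) and Pik3ca (-0.33, adjusted p = 0.00488) passed on the fat side, and without eWAT library 4 their differences were 0.08, 0.00 and 0.10. A p that misses the threshold does not show equal levels. With library totals these 7 genes would all lie on the fat side.

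Around this core, forms and adaptors differed strongly. Tbc1d1 and Tbc1d4, the AKT targets that hold GLUT4 inside the cell, differed by -3.35 and -2.77. The receptor-binding adaptors Grb14 and Grb10 lay on opposite sides, with Grb14 at 55.5 to 84.4 CPM in liver and 4.92 to 7.35 in eWAT (3.65) and Grb10 at 2.76 to 7.27 and 30.2 to 64.7 (-3.16). Pik3r3, a regulatory subunit of PI3-kinase, and Inpp5d, the phosphatase SHIP1 of blood cells, were at -3.01 and -3.63, both lowest in eWAT library 4. The part of epididymis RNA in both was not tested. Irs3 was in the eWAT table only, at 2.91 to 13.8 CPM. Socs3, a feedback inhibitor that cytokines induce, had 99.2, 10.2, 28.8, 28.9 and 17.4 CPM in liver, highest in library 1 where Saa1 was highest, and 1.86 to 5.24 in eWAT. Its difference of 3.45 was 2.66 without liver library 1.

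Genes of insulin clearance lay on the liver side. Ceacam1, which carries insulin into hepatocytes, had 349.8, 345, 304, 299 and 274 CPM in liver and 76.7, 9.22, 10.2, 20.6 and 11 in eWAT (3.62, SE 0.61, adjusted p = 0.00025, and 4.67 without eWAT library 1). Ide, the insulin-degrading enzyme, had 199, 122, 127, 114 and 183 CPM in liver and 68.5, 111, 58.0, 39.8 and 64.4 in eWAT (1.12, adjusted p = 0.00262, but -0.26 with library totals). The lowest liver library of Ide was just above the highest fat library.

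Genes in 1 table only carried little of the liver signal and more of the fat signal. Shared genes took 99.1% to 99.9% of liver counts and 88.2% to 96.9% of eWAT counts. In the liver table only, Saa2, a serum amyloid, had 13020.0, 69.7, 6675, 229 and 281 CPM, highest in the libraries 1 and 3 that stood apart. In the eWAT table only, genes took 8.85%, 11.8%, 7.78%, 3.07% and 8.37% of counts in libraries 1 to 5, and the listed epididymis genes as a whole 4.23%, 3.56%, 4.79%, 1.09% and 5.57%. The 5 most abundant listed epididymis genes were Gpx5, Crisp1 and Spag11b as above, Adam7, at 2567, 2544, 3016, 702 and 3573 CPM, and Lcn5, a lipocalin, at 1321, 1072, 1405, 349 and 1522. Each table's lowest sum over its 10 libraries was 10, and why a gene is in 1 table only is not given in the sources used here. With such genes entered at 0 in the other tissue, the strongly higher genes numbered 1353 in liver and 3991 in eWAT.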

How the data were processed

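Poly-A RNA of whole liver and eWAT was sequenced, and all libraries were prepared together, per the labels' protocols. The deposited files hold estimated counts per gene, in whole numbers, 1 table a tissue. The submitters' processing notes name Salmon 1.8.0, DESeq2 1.32.0 and GRCm39. Their settings and the annotation are not given in the sources used here. The mean normalised signal in the authors' deposited comparison tables was used only to see which genes lack counts: 3590 genes in liver (2.365% of the summed signal) and 7082 in eWAT (5.096%).

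Tables were joined by Ensembl ID after repeated IDs with equal counts were dropped (83 in liver, 208 in eWAT). Library sizes were the totals of each table, and no value column lacked a sample. In R 4.3.3, edgeR 4.0.16 (filterByExpr with minimum count 10 and minimum total 15, TMM, quasi-likelihood F test) was fitted to the 10 WT libraries, with a common biological coefficient of variation of 0.323. SE is the absolute log2 fold change divided by the square root of F. The fit was tested on simulated data of 14388 genes, where it recovered 11 of 100 genes changed by 1 and 95 of 100 changed by 2 on the log2 scale, with 4 false calls. Both simulated tissues had the same mean profile apart from the changed genes, and a fixed dispersion. The false calls therefore do not measure error from scaling between tissues as unlike as these. Lengths for CPM per kilobase came from GENCODE M21 transcripts, and 0.5 CPM per kilobase was added in ratios.

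The genes, lists and pairs compared were chosen with earlier results of these data known. Named genes were the 10 largest strong differences each way (mean of at least 10 CPM, span under 16-fold, outside the epididymis and testis lists), all genes of the pairs and of the hormone, receptor and insulin signalling lists, up to 4 leading genes of each other list with strong members against its side, the most abundant genes of 1 table, and Insr, Igf1r, Mad2l1, Mad2l1bp and Bub1b. Some of these genes are not reported here. Alternatives were other scalings, filters and tools (DESeq2 1.42.0, limma 3.58.1), a replicate block, and leaving out libraries.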

Additional observations from a re-analysis of the deposited data

Results flagged for a closer look

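Of 335 measures over 5 libraries, 56 had 1 library far from the other 4 by Dixon's criterion (gap over range above 0.71), where chance gives about 1 in 20. Most were high values of eWAT library 4. The summed CPM of that library was 20015 for adipocyte markers (6242 to 9834 in the others), 365 for Kupffer cell markers and 1096 for vascular endothelial markers. The Kupffer cell list includes Cdh5, which is also on the vascular list and had 281 CPM there (89.6 to 137.5 in the others). The Kupffer cell sum in fat therefore does not measure Kupffer cells alone.

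Among adipocyte genes, eWAT library 4 had 993 CPM of Plin1, 6147 of Fabp4, 89.5 of Plin2, 1369 of Pck1, 116 of Pparg, 1286 of Adipoq, 268 of Retn, 108 of Dgat1, 392 of Acaca, 104 of Acvr1c, 107 of Ebf1, 20.9 of Zfp423, 57.1 of Klf15 and 160.1 of Chst1. Among secreted proteins and matrix it had 15.5 of Igf2, 801 of Selenop, 83.1 of Rarres2, 89.2 of Npy, 70.3 of Fgf1, 42.3 of Nrg4, 77.5 of Igfbp6, 80.0 of Vwf and 265 of Eln.

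Among receptors and signalling genes it had 455 CPM of Adipor2, 543 of Ghr, 63.2 of Egfr, 80.9 of Tshr, 63.9 of Lifr, 27.2 of Ptger3, 15.7 of Thrb, 50.9 of Nr1h3, 64.7 of Grb10, 180.2 of Akt2 and 41.4 of Tbc1d4. It also had 47.9 of Fh1, 52.3 of Suclg2, 8488 of mt-Atp6 and 281 of Cdh5. Nr4a1 was the 1 such measure that was low there, at 6.49 CPM against 18.9 to 20.7.

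In eWAT library 2, Wbscr25 (125 CPM), Nr2c2 (51.6), Pdpk1 (77.4) and Smcp, a sperm mitochondrial protein (564), were high, and Adipor1 (70.3) and C1qtnf9 (30.4) were low. Ceacam1 was high in eWAT library 1, at 76.7 CPM. In liver, library 5 was high for Mup12 (1204), Mup16 (3423), Fgfr1 (34.8), Angptl4 (414) and Lpin2 (954), and library 1 for Akt2 (146) and Socs3 (99.2). The part of other cell types in these values was not tested.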

How the results depend on the processing

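With library totals only, 1413 genes were higher in liver and 11344 in eWAT, and the strong rule gave 694 and 5357. Of 211 named genes tested, 19 then changed direction and passed with one scaling or both: Acacb (-0.16), Adipor1 (-1.06), Insr (-0.061), Angptl4 (-0.22), Nampt (-1.18), Nrg4 (-1.12), Ghr (-0.53), Fgfr2 (-1.13), Npr2 (-0.34), Nr3c1 (-1.05), Nr2c2 (-1.26), Akt1 (-1.31), Akt2 (-1.06), Ide (-0.26), Mad2l1bp (-1.12), Ptpn1 (-1.35), Pdpk1 (-1.37), Rps2 (-0.53) and Rpl7a (-0.89). With upper-quartile scaling 8 genes that passed with neither scaling changed sign: Nampt (-0.10), Nrg4 (-0.03), Fgfr2 (-0.04), Nr2c2 (-0.16), Akt1 (-0.22), Mad2l1bp (-0.02), Ptpn1 (-0.24) and Pdpk1 (-0.27). Adipor1, Ghr and Rpl7a lost their call there, and Irs1, Irs2, Pik3ca, Tfrc and Esr1 gained one. Under each other setting at most 5 genes changed sign, and none of these passed with either. The number of genes strongly higher in liver, WT, was 2526 with a log2 difference of at least 1 and 813 with one of at least 3. A span of 8-fold set apart 379 tested and 1152 eWAT-only genes, and one of 32-fold 94 and 416.

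Leaving out each library in turn gave 4513 to 5058 genes higher in liver, 5394 to 5797 higher in eWAT, 1277 to 1399 strongly higher in liver and 2701 to 2852 strongly higher in eWAT. It gave 24 to 26 of 33 lists of genes by process with a median on the liver side (24 with all libraries, 23 with upper-quartile scaling and 17 with library totals), 191 to 193 named genes called (193) and 24 pairs (24). The pair ratios with library totals (24 pairs) were chosen after seeing the data. Same-numbered liver and fat libraries did not deviate together (r from -0.0628 to 0.0057 across genes, which are not independent replicates), and whether they share a mouse is not known. With the replicate block 4435 genes were higher in liver and 5497 in eWAT, and no pair passed (0 of 25), since the smallest p of sign flips over 5 pairs is 0.0625. Esr1 gained its call under the block, and Cpt1b and Adipor1 lost theirs. Near the floor of 3 counts over a group, fitted differences depend on single reads.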
